A study of Rattus norvegicus with 18 samples.

Results

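The genes described here are 10 that carry glucose into the cell and on to lactate: the glucose transporter gene Slc2a1, the hexokinase genes Hk1 and Hk2, the phosphofructokinase genes Pfkl and Pfkp, and Aldoa, Tpi1, Eno1, Pkm and Ldha. They were taken by symbol, and 10 of 10 were found among the 13188 genes of the expression table. Poly-A RNA was sequenced from 18 libraries of Rat1 fibroblasts, a rat cell line, in 6 groups of 3. Every library came from the line HO15.19, which lacks functional endogenous myc (myc-/-), was grown in DMEM with 10% FBS, and belongs to a study of the genes that MYC regulates. Where the labels give MYC, the cells stably carried human MYC delivered by a virus, so that each genotype is 1 cell line.

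The libraries form 2 sets that had been put on different scales, and groups were compared only within a set. One further test set the log2FC values of the sets against each other. A set of 6 holds myc-/- cells transfected with a control siRNA (myc-/- siCtrl) and untransfected myc-/- cells with human MYC (myc-/- + MYC). A set of 12 holds untransfected myc-/- cells and 3 groups of myc-/- cells with human MYC, transfected with control siRNA (myc-/- + MYC siCtrl) or with either of a pair of siRNAs against the aryl hydrocarbon receptor AHR (the siAHR-2 group and the siAHR-5 group). Transfected cells received 40 nM siRNA and were harvested after 48 h. In both sets MYC and transfection change together, and their effects cannot be told apart. The MYC comparison of the set of 6 asks how untransfected MYC-expressing cells differ from control-transfected cells without MYC, and that of the set of 12 how control-transfected MYC-expressing cells differ from untransfected cells without MYC. The labels do not say that the 3 libraries of a group came from separate cultures, so p-values measure only the spread between these libraries.

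Glycolysis breaks glucose down to pyruvate in the cytosol. A facilitative transporter admits glucose, hexokinase traps it by phosphorylation, phosphofructokinase makes the committed step, and aldolase, triose phosphate isomerase, enolase and pyruvate kinase take part in the steps that follow. Lactate dehydrogenase A turns pyruvate into lactate and restores the NAD+ that the pathway uses. Proliferating fibroblasts are known for making lactate from glucose even when oxygen is present, and several of these genes are textbook targets of both MYC and the hypoxia-inducible factor HIF1.

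Promoter sequence is shown for Ldha and Slc2a1, the 2 genes whose difference from set to set was largest among the 10, and only the letters of 2 short motifs were searched. These are CACGTG, the E-box that MYC with MAX is known to bind, and ACGTG, the core of the element that HIF1 is known to bind, which lies within CACGTG. Both strands were searched in windows from 250 bases before to 50 bases after the annotated start in RefSeq promoters of the assembly GRCr8, where 10 of 10 genes matched with 14 promoters. The first line is GRCr8 chr1:106507972-106508091 and the second GRCr8 chr5:138002402-138002521, each on the + strand and each the 120 bases before the start, with the motif letters in capitals.
Ldha: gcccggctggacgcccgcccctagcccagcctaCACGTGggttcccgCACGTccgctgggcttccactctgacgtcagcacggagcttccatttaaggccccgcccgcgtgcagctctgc
Slc2a1: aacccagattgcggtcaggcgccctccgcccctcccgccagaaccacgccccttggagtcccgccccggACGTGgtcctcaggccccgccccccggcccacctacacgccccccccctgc
CACGTG stood in 1 of the 14 promoters, that of Ldha, 87 bases before its start, and 6.42% of 33469 rat promoters hold those letters. ACGTG stood in 5 of the 14, of Aldoa, Eno1, Hk1, Ldha and Slc2a1, against 19.25% of all promoters. In Ldha it begins 87, 86 and 73 bases before the start and in Slc2a1 51 bases before it. These matches describe letters and do not show binding.

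The values are the deposited log2 expression values, and a log2FC is the difference between the means of 2 groups on that scale. A gene was called higher or lower where it changed 1.5-fold or more, which is 0.585 as a log2FC, with an adjusted p from limma of at most 0.01 over all 13188 genes. Values were not divided by gene length, so levels are compared between libraries and not between genes.  The targeted gene Ahr measured 13.34, 13.26 and 13.22 in myc-/- + MYC siCtrl cells, 11.97, 11.97 and 12.03 with siAHR-2, and 11.95, 11.76 and 11.94 with siAHR-5. It fell by 1.29 with siAHR-2 (adjusted p = 2.37e-04) and by 1.39 with siAHR-5 (adjusted p = 2.16e-04). With replicate number as a block in the fit, the fall with siAHR-2 was as large but not called (adjusted p = 0.0126). Rat Myc still gave values, with means of 9.31 in myc-/- siCtrl, 8.04 in myc-/- + MYC, 10.89 in myc-/- and 8.21 in myc-/- + MYC siCtrl cells. Its log2FC with MYC was -1.26 (adjusted p = 4.21e-08) and -2.68 (adjusted p = 6.02e-07) in the sets of 6 and 12. All groups carry the same knockout, so these values do not check the MYC label, and human MYC was not analysed here.

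Markers of the labelled cell type moved with MYC as well. Of 9 fibroblast markers, 4 were called lower (Col1a1, Fn1, Pdgfrb and Thy1) and 1 higher (Col3a1) with MYC in the set of 6, and 5 lower (the same 4 and Pdgfra) in the set of 12. Col1a1, a chain of type I collagen, had a log2FC of -1.73 and -5.95, and Fn1, fibronectin, of -1.76 and -1.80. Summed off the log scale, the 9 markers made up 1.96% to 2.00% of the total in myc-/- siCtrl and 1.13% to 1.20% in myc-/- + MYC libraries, and 2.56% to 2.96% in myc-/- and 0.855% to 0.869% in myc-/- + MYC siCtrl libraries. Vim was called in neither set, and Col1a2 had group means of only 3.64 to 4.08. Of the epithelial markers, Krt8 rose with MYC from a mean of 6.08 to 7.78 and from 7.70 to 8.87, while Epcam (1.24 to 2.40) and Cdh1 (3.62 to 4.25) had low means in every group. None of the leukocyte markers Ptprc (2.84 to 4.62) and Cd68 (6.94 to 7.46) and the endothelial markers Pecam1 (6.54 to 7.45) and Cdh5 (4.73 to 7.10) was called with MYC. These ranges of group means, like those of Col1a2, Epcam and Cdh1, span both sets, whose scales differ. For Ptprc the means were 4.47 to 4.62 in the set of 6 and 2.84 to 2.88 in the set of 12. With siAHR-2 no marker was called, and with siAHR-5 1 fibroblast marker was higher. The part of these shifts in the values of the 10 genes was not tested.

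**Figure D1:**
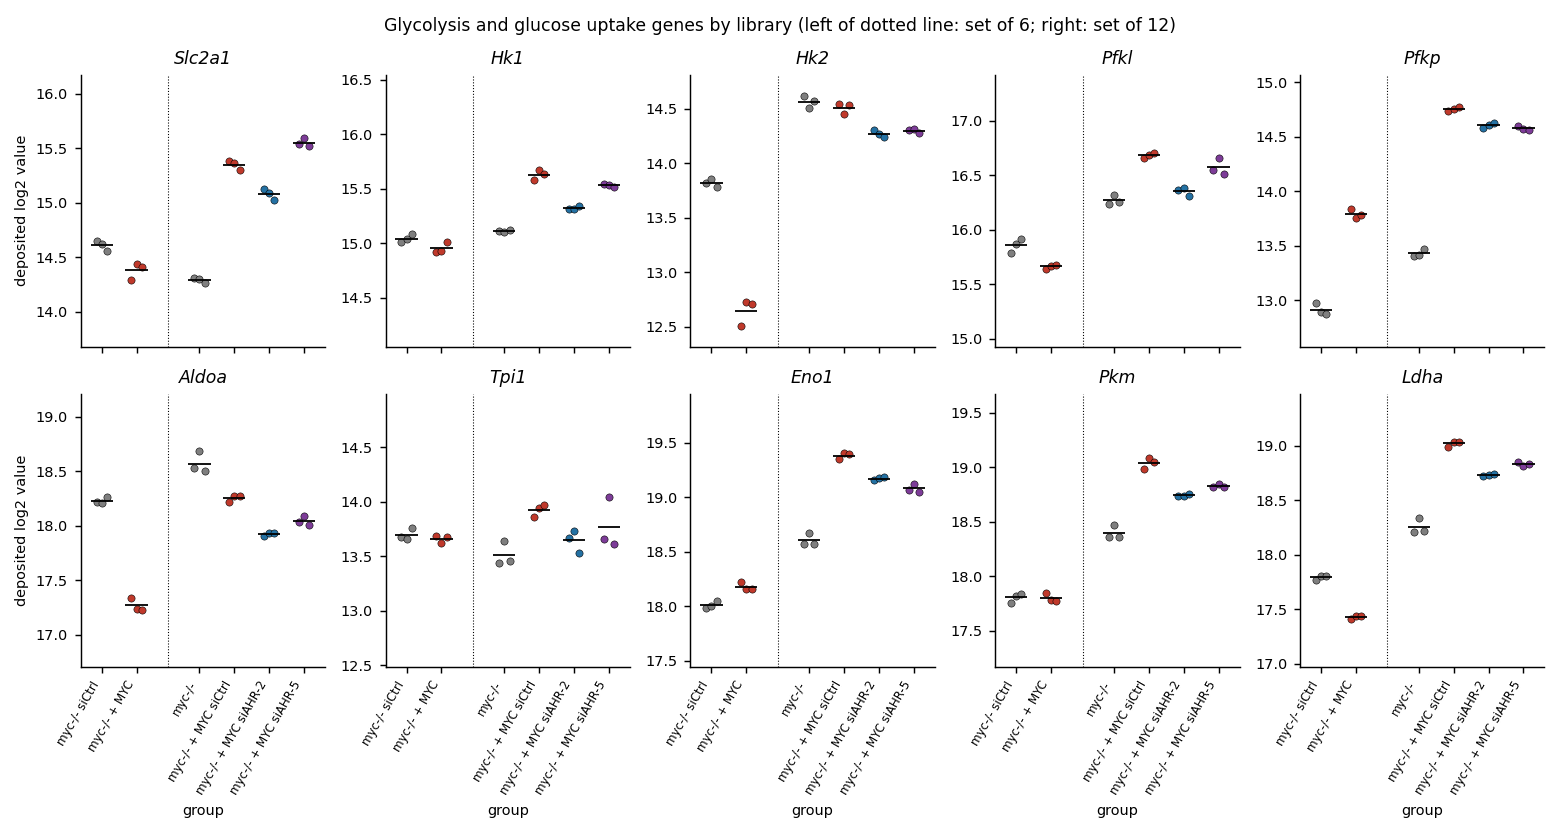
Deposited log2 value (vertical axis) of each of the 10 genes by group (horizontal axis); points are libraries, lines are the means of 3, and the dotted line parts the set of 6 from the set of 12, whose scales differ. Hk2 and Aldoa are lower with MYC on the left, and Slc2a1, Pfkp, Eno1, Pkm and Ldha are higher with MYC on the right.

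The 10 genes did not move as a block with MYC, and the sets differed. In the set of 6, Pfkp rose 1.84-fold while Hk2 and Aldoa fell, by 1.17 and 0.96 on the log2 scale, and 7 of the 10 were not called. The set of 12 gave 5 called genes, Slc2a1, Pfkp, Eno1, Pkm and Ldha, all higher with MYC, and none lower. Pfkp was the 1 gene called in both. All genes together gave 12.5% called higher and 14.3% called lower in the set of 6. For the set of 12 these were 10.8% and 14.7%. For the 10 the median log2FC was -0.14 in the set of 6, beside -0.0038 over all genes, and 0.58 in the set of 12, beside -1e-04.

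Slc2a1 encodes GLUT1, the transporter for basal glucose uptake in most cells. Its values were 14.65, 14.62 and 14.56 in myc-/- siCtrl cells and 14.29, 14.44 and 14.42 in myc-/- + MYC cells. In the set of 12 they were 14.31, 14.30 and 14.26 in myc-/- cells and 15.38, 15.36 and 15.30 in myc-/- + MYC siCtrl cells. Neither pair of groups overlapped, but the MYC libraries lay below in the first and above in the second. The log2FC was -0.23 (SE 0.0410, adjusted p = 3.60e-04, not called) in the set of 6 and 1.06 (SE 0.0327, adjusted p = 2.18e-06), a 2.08-fold rise, in the set of 12. Quantile normalization, an alternative scaling, moved the first of these to 0.01, so that the small negative value in the set of 6 rests on the scaling.

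Hexokinase 1 is the constitutive form of the enzyme that traps glucose, and hexokinase 2 the inducible form of muscle, fat and many tumors. Hk1 measured 15.00, 15.03 and 15.08 in myc-/- siCtrl and 14.92, 14.93 and 15.01 in myc-/- + MYC cells, which overlapped. Its values of 15.11, 15.10 and 15.12 in myc-/- cells were all below the 15.58, 15.67 and 15.63 of myc-/- + MYC siCtrl cells, with a log2FC of 0.52 (SE 0.0314, adjusted p = 3.08e-05), under the fold cutoff. Against this, the set of 6 gave -0.09 (adjusted p = 0.0317), which became 0.14 under quantile normalization. The same scaling took Hk1 past the cutoff in the set of 12, at 0.70.

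Hk2 showed the largest fall of the 10. It stood at 13.82, 13.85 and 13.78 in myc-/- siCtrl cells and at 12.51, 12.72 and 12.71 in myc-/- + MYC cells, a log2FC of -1.17 (SE 0.0528, adjusted p = 3.07e-09) or 2.25-fold lower with MYC. In the set of 12 the 14.62, 14.51 and 14.57 of myc-/- cells overlapped the 14.54, 14.45 and 14.53 of myc-/- + MYC siCtrl cells. There the log2FC was -0.06 with a 95% confidence interval of -0.16 to 0.04 (adjusted p = 0.273), and 0.07 under quantile normalization.

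Phosphofructokinase is a tetramer of liver-type (Pfkl), platelet-type (Pfkp) and muscle-type (Pfkm) subunits. Pfkp measured 12.97, 12.89 and 12.87 in myc-/- siCtrl and 13.84, 13.75 and 13.78 in myc-/- + MYC cells, a log2FC of 0.88 (SE 0.0365, adjusted p = 1.56e-09). In the other set it went from 13.40, 13.41 and 13.46 in myc-/- to 14.73, 14.76 and 14.77 in myc-/- + MYC siCtrl cells, with a log2FC of 1.32 (SE 0.0270, adjusted p = 5.15e-07), which is 2.50-fold. The groups lay apart in both sets, with the MYC libraries above.

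Pfkl behaved otherwise. It measured 15.78, 15.87 and 15.91 without MYC and 15.64, 15.67 and 15.67 with MYC in the set of 6 (log2FC -0.19, adjusted p = 3.57e-04). Pfkl in the set of 12 had 16.23, 16.32 and 16.26 without and 16.66, 16.69 and 16.70 with MYC, with a log2FC of 0.41 (adjusted p = 9.79e-05). The libraries did not overlap in either set, and neither value reached the fold cutoff, but quantile normalization took the second to 0.59 and past it.

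Aldolase A splits fructose 1,6-bisphosphate, and triose phosphate isomerase interconverts its products. Aldoa measured 18.22, 18.21 and 18.26 in myc-/- siCtrl cells and 17.34, 17.24 and 17.23 in myc-/- + MYC cells, and fell by 0.96 (SE 0.0357, adjusted p = 6.24e-10). The set of 12 had 18.53, 18.68 and 18.50 in myc-/- and 18.21, 18.27 and 18.27 in myc-/- + MYC siCtrl cells (log2FC -0.32, SE 0.0605, adjusted p = 0.00437), which is under the fold cutoff. Aldoa was lower with MYC in every library of both sets, the 1 gene of the 10 of which this holds.

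Tpi1 ranged from 13.66 to 13.76 in myc-/- siCtrl and from 13.62 to 13.68 in myc-/- + MYC cells, which overlapped (log2FC -0.04, adjusted p = 0.328, and 0.13 under quantile normalization). Its values of 13.43, 13.64 and 13.46 in myc-/- cells lay below the 13.85, 13.94 and 13.97 of myc-/- + MYC siCtrl cells (log2FC 0.41, SE 0.0647, adjusted p = 0.00187, not called).

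Enolase 1 makes phosphoenolpyruvate and pyruvate kinase M turns it into pyruvate with a gain of ATP. Eno1 measured between 17.99 and 18.05 in myc-/- siCtrl and 18.22, 18.16 and 18.15 in myc-/- + MYC cells (log2FC 0.17, SE 0.0322, adjusted p = 6.18e-04, not called). It measured 18.57, 18.67 and 18.57 in myc-/- and 19.35, 19.40 and 19.39 in myc-/- + MYC siCtrl cells (log2FC 0.78, SE 0.0495, adjusted p = 3.68e-05), a 1.71-fold rise. The MYC libraries were the higher ones in both sets.

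Pkm did not separate in the set of 6, with 17.76, 17.82 and 17.83 against 17.84, 17.78 and 17.77 with MYC. Its log2FC of -0.01 there had a 95% confidence interval of -0.08 to 0.07 (adjusted p = 0.832) and was 0.12 under quantile normalization. In the set of 12 it rose from 18.36, 18.46 and 18.36 to 18.99, 19.08 and 19.05, a log2FC of 0.64 (SE 0.0515, adjusted p = 9.61e-05).

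Ldha, the last step to lactate, measured 17.77, 17.81 and 17.81 in myc-/- siCtrl and 17.41, 17.44 and 17.44 in myc-/- + MYC cells (log2FC -0.36, SE 0.0280, adjusted p = 2.99e-07, not called). It measured 18.21, 18.33 and 18.22 in myc-/- and 18.99, 19.04 and 19.04 in myc-/- + MYC siCtrl cells (log2FC 0.77, SE 0.0502, adjusted p = 4.01e-05). Its groups lay apart in both sets, in opposite directions. RefSeq names 9, 3, 30, 19 and 30 pseudogenes after Aldoa, Tpi1, Eno1, Pkm and Ldha and 0 after the other 5 genes. Whether reads were shared with such copies was not tested, and how shared reads were counted is not given in the sources used here.

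**Figure D2:**
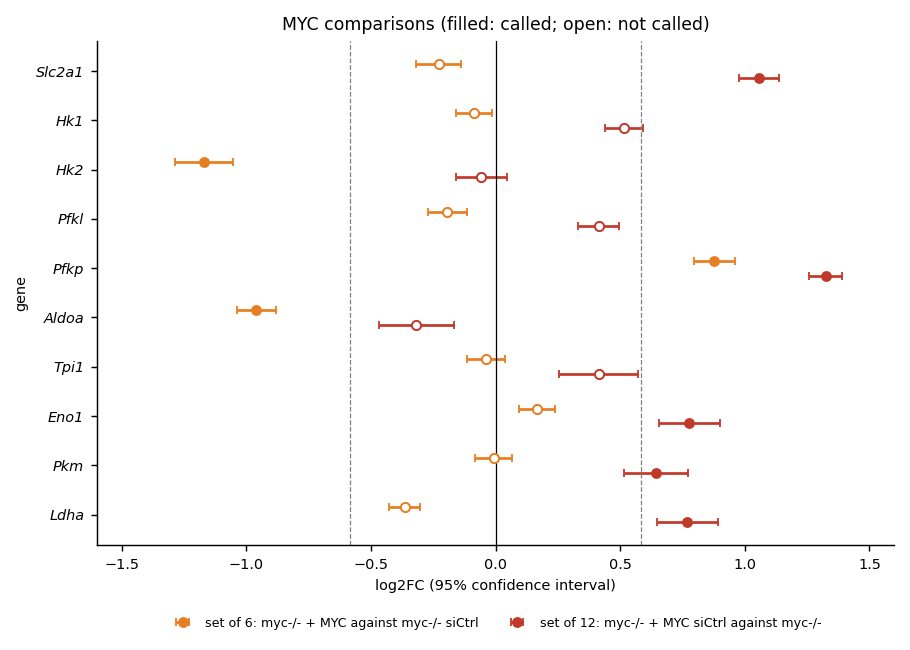
log2FC with MYC minus without (horizontal axis, bars are 95% confidence intervals) of the 10 genes in the set of 6 and the set of 12; filled points were called, and dashed lines mark the fold cutoff of 1.5. The value of the set of 12 lies to the right of that of the set of 6 for each of the 10 genes.

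Without the fold cutoff, at a false discovery rate of 0.05, the set of 6 had 8 of the 10 passing, beside 76.2% of all genes, and the set of 12 had 9, beside 64.7%. Groups did not overlap for 7 of the 10 in the set of 6, where 78.8% of all genes did not overlap, and for 9 of the 10 in the set of 12, where 70.5% did not. These shares of the 10 were near those of all genes in the set of 6. Added up off the log scale, the 10 genes took between 1.24% and 1.28% of a library's total in myc-/- siCtrl cells and between 1.14% and 1.18% in myc-/- + MYC cells, but between 0.987% and 1.08% in myc-/- cells and between 1.58% and 1.65% in myc-/- + MYC siCtrl cells. Genes with high values weigh most in this sum. In myc-/- + MYC siCtrl cells Eno1, Pkm and Ldha had means of 19.38, 19.04 and 19.02, and Tpi1 of 13.92.

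The log2FC of the set of 6 was subtracted from that of the set of 12 in a fit of the 12 libraries concerned. Transfection runs against MYC in the first contrast and with it in the second, so this difference holds effects of transfection and of the set, and it does not test whether MYC acted alike. It was positive for 10 of the 10 genes and called for 8, beside 6.79% of all genes called higher and 9.67% called lower. Slc2a1 had the largest difference, 1.28 (SE 0.0607, adjusted p = 1.95e-10), followed by Ldha at 1.13 (SE 0.0585, adjusted p = 5.19e-10) and Hk2 at 1.11 (SE 0.0758, adjusted p = 1.17e-08). Pkm differed by 0.65, Aldoa by 0.64, Eno1 by 0.61, Pfkl by 0.61 and Hk1 by 0.60, with adjusted p-values from 1.69e-07 to 2.54e-06. Pfkp, at 0.45 (adjusted p = 5.21e-06), and Tpi1, at 0.45 (adjusted p = 1.11e-04), stayed under the fold cutoff. Those close to the cutoff did not hold under each alternative: quantile normalization left Hk1 at 0.57 and Eno1 at 0.30, leaving out myc-/- siCtrl replicate 3 took Hk1 and Pfkl to 0.58, and leaving out myc-/- + MYC siCtrl replicate 2 took Hk1 to 0.58. All 10 genes passed a false discovery rate of 0.05, beside 54.9% of all genes. The median difference was 0.63 for the 10 and -0.0151 over all genes. In the same difference 5 of 9 fibroblast markers were called lower, and 69.8% of the 232 genes that averaged 16 or more on the log2 scale, 5 of the 10 among them, lay below 0 with a median of -0.23. The part of these shifts, and of the different scales of the sets, was not tested.

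Genes of neighbouring steps were read from 5 lists of the pathway, whose counts stand beside 12.5% of all genes called higher and 14.3% called lower in the set of 6, and 10.8% and 14.7% in the set of 12. Among other glycolytic enzymes, 15 of 17 listed genes were measured, of which 4 rose and 3 fell with MYC in the set of 6. The set of 12 had 4 that rose and 1 that fell. Pgam2, 1 of those that rose in the set of 6, was not called under median centring (0.56), without myc-/- siCtrl replicate 3 (0.58) or without myc-/- + MYC replicate 1 (0.57), and Eno3, 1 of those that rose in the set of 12, was not called without myc-/- + MYC siCtrl replicate 3 (0.58). Pfkm, the muscle phosphofructokinase, rose by 1.16 (adjusted p = 9.46e-10) and 1.05 (adjusted p = 1.12e-06), and Ldhb, the lactate dehydrogenase subunit that favours pyruvate, fell by 1.74 (adjusted p = 4.98e-12) and by 1.40 (adjusted p = 6.05e-05). Pgk1, the first ATP-making step, was picked after its values were seen: its log2FC was -0.48 (adjusted p = 1.92e-05, not called) in the set of 6 and 0.77 (adjusted p = 6.89e-05, called) in the set of 12, and these differed by 1.25 (adjusted p = 2.37e-08). Gapdh, picked likewise, was called in neither, with -0.16 (0.14 under quantile normalization) and 0.15. The difference between the sets was called higher for 4 of the 15 and lower for 2, beside 6.79% and 9.67% of all genes. Quantile normalization left Adpgk, 1 of the 4, at 0.58 and Pklr, 1 of the 2, at -0.45, both under the cutoff. Aldoc, picked likewise and also 1 of the 2, rose by 0.96 in the set of 6. It was at 0.04 in the set of 12, a difference of -0.93. Its level in the set of 12 was low, with means of 5.21 in myc-/- and 5.24 in myc-/- + MYC siCtrl cells. Whether so low a level hides a change was not tested.

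Of 6 other glucose transporters, 3 rose and 1 fell with MYC in the set of 6. The set of 12 had 2 that rose and 1 that fell. Slc2a4, the insulin-responsive transporter GLUT4, rose 4.91-fold (adjusted p = 5.83e-10) in the set of 6 and by 1.20 on the log2 scale (adjusted p = 1.86e-05) in the other set. Slc2a12 rose by 1.64 (adjusted p = 1.76e-10) and by 1.47 (adjusted p = 2.75e-05). Slc2a6, a transporter of lysosomal membranes, fell by 1.71 (adjusted p = 1.54e-11) and by 1.77 (adjusted p = 2.51e-06).

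Regulators of glycolytic flux, 11 of 12 measured, had 3 that rose and 1 that fell in the set of 6. For the set of 12 these were 2 and 1, where Pfkfb2 was not called without myc-/- replicate 2 (0.55) or without myc-/- + MYC siCtrl replicate 1 (0.57). Txnip, an arrestin-like protein that restrains glucose uptake, rose by 1.12 (adjusted p = 1.41e-04) and by 1.47 (adjusted p = 1.07e-04). In myc-/- + MYC cells its replicate 1 stood at 16.16 and the others at 15.34 and 15.28. Over the libraries left out in turn, the value of the set of 6 ran from 0.83 to 1.27 and stayed called. Arrdc4, a relative of Txnip, rose by 1.09 (adjusted p = 1.76e-07) in the set of 6 and was at -0.02 (adjusted p = 0.948) in the set of 12, and the difference of -1.10 was called. Pfkfb3, which makes the allosteric activator fructose 2,6-bisphosphate, fell by 0.91 (adjusted p = 2.50e-08) and by 0.90 (adjusted p = 5.22e-04).

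The 16 genes of lactate export and pyruvate entry into mitochondria had 3 that rose and 1 that fell in the set of 6. For the set of 12 these were 2 and 1, and the 1 that fell, Pdk3, was not called under quantile normalization (-0.56). Pdk1, a kinase that holds back pyruvate dehydrogenase, rose by 1.18 (adjusted p = 7.71e-07) in the set of 12 and was at 0.01 (adjusted p = 0.670) in the set of 6, a difference of 1.16 (adjusted p = 2.56e-11). The lactate transporter gene Slc16a1 rose by 0.86 (adjusted p = 4.10e-06) in the set of 12 and was at 0.18 (not called) in the set of 6, and the difference of 0.68 was called, though not under quantile normalization (0.56). Pdk2 rose by 0.93 (adjusted p = 5.40e-07) in the set of 6 and was at 0.24 (not called) in the set of 12. Pdp2, a phosphatase of the same complex, rose by 0.86 (adjusted p = 1.76e-08) in the set of 6 and was at 0.39 (not called) in the set of 12. The counts of this list, 4 of 16 and 3 of 16 called, are close to or below the share of all genes called. In the set of 6 the 1 that fell, Pdp1, was not called under quantile normalization (-0.56), and Pdk4, 1 of the 3 that rose, was not called under median centring (0.55), without myc-/- siCtrl replicate 1 (0.54) or without myc-/- + MYC replicate 1 (0.53).

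The pentose phosphate branch, which draws glucose 6-phosphate off glycolysis to make NADPH and ribose, had no called gene above its control in either set. Of all genes, 12.5% and 10.8% were called higher in the sets of 6 and 12, so none among 8 is near those shares. Of the 8 genes of the branch, MYC went with 3 called lower in the set of 6, where the list median was -0.43. The set of 12 had 4 called lower and a median of -0.55, beside -0.0038 and -1e-04 over all genes and 14.3% and 14.7% called lower. Of these 4, Taldo1 was not called under quantile normalization (-0.42), under median centring (-0.57) or without myc-/- replicate 2 (-0.55). Pgls, another of the 4 and picked after its values were seen, was at -0.74 in the set of 12. In the set of 6 Pgls lay the other way, at 0.52 (adjusted p = 2.24e-08, not called), and the difference of -1.26 was called. Rpia, ribose 5-phosphate isomerase, fell by 0.95 (adjusted p = 4.65e-10) and by 1.00 (adjusted p = 3.30e-05). Rpe fell by 0.78 (adjusted p = 1.70e-09) in the set of 6 and was at -0.43 (not called) in the set of 12. Tkt, picked after its values were seen, lay the other way and was not called. Its means without and with MYC were 15.67 and 16.16 in the set of 6, and 16.36 and 16.72 in the set of 12.

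**Figure D3:**
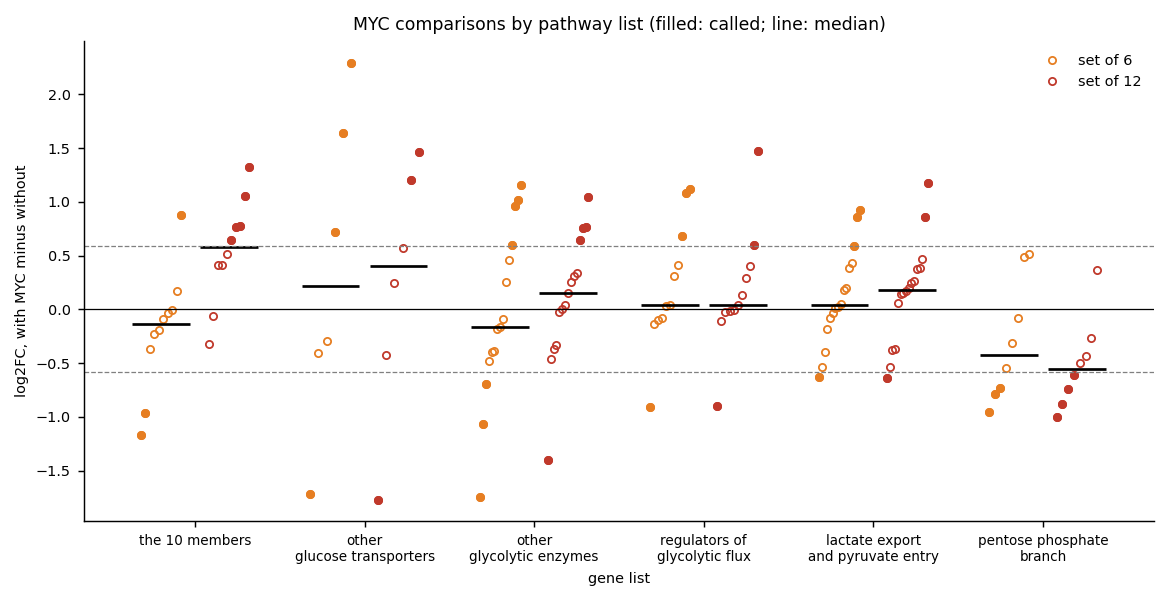
log2FC with MYC minus without (vertical axis) of each measured gene, by list (horizontal axis), in the set of 6 and the set of 12; filled points were called, lines are list medians and dashed lines mark the fold cutoff. The pentose phosphate branch has medians of -0.43 and -0.55 and no filled point above 0, while the 10 genes have medians of -0.14 and 0.58.

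Isoform balance was read as the log2 ratio of 2 genes within a library, for 4 pairs chosen after their values were seen. A ratio of 2 genes in 1 library compares only across libraries, since gene length is not taken out. Ldha/Ldhb was between 4.04 and 4.09 in myc-/- siCtrl and between 5.36 and 5.50 in myc-/- + MYC cells, a difference of 1.38, and between 5.72 and 5.86 in myc-/- and between 7.91 and 8.11 in myc-/- + MYC siCtrl cells, a difference of 2.17. Pfkp/Pfkl differed by 1.07 and 0.91 and Pfkm/Pfkl by 1.35 and 0.63, so both ratios to the liver-type subunit gene were higher with MYC. Hk2/Hk1 differed by -1.08 and -0.57. Groups did not overlap in any of these 8 comparisons, and the exact permutation test (2-sided) gave p = 0.1 for each, the smallest that 3 against 3 allows, over 20 comparisons of ratios in all. The size of the ratio differences depends on the processing. Over the MYC and siRNA comparisons, quantile normalization or a pseudocount of 1 moved 11 differences by more than the spread within groups. Leaving out a library moved 0 by as much.

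**Figure D4:**
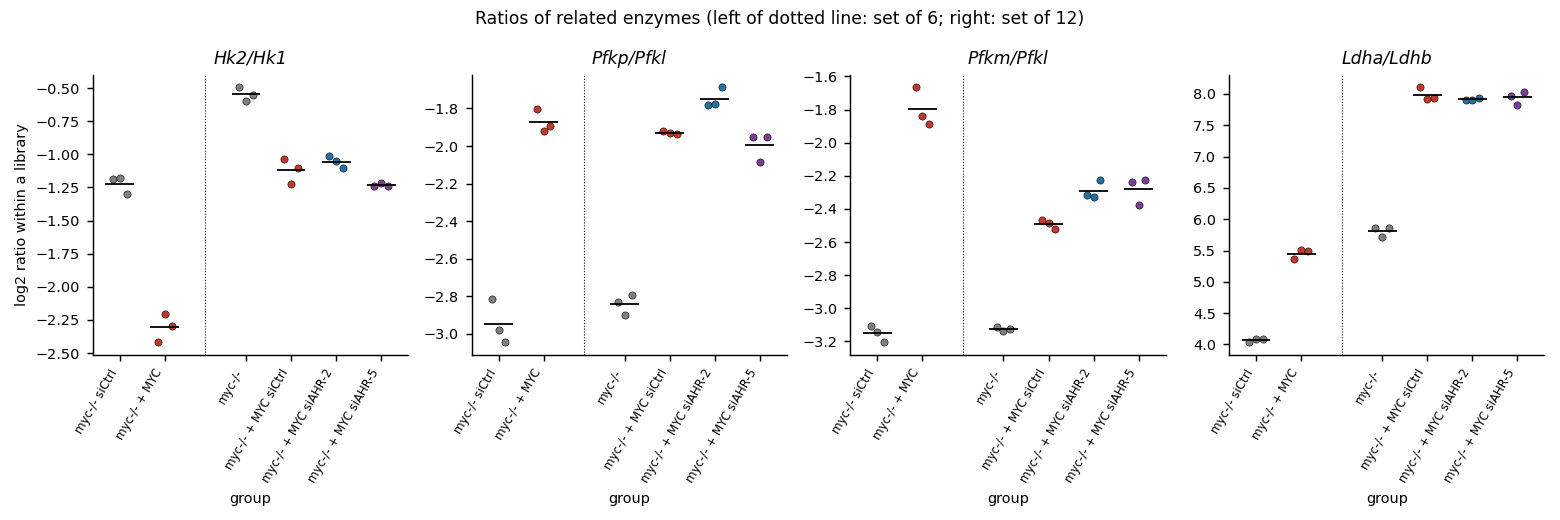
log2 ratio within a library (vertical axis) of 4 gene pairs by group (horizontal axis); points are libraries and lines means of 3, with the set of 6 left of the dotted line. With MYC, Hk2/Hk1 is lower and Pfkp/Pfkl, Pfkm/Pfkl and Ldha/Ldhb are higher in both sets.

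When AHR was silenced in cells with MYC, none of the 10 genes was called with either siRNA by limma, although 10 had an unadjusted p under 0.05 with siAHR-2, beside 40.4% of all genes, and 9 with siAHR-5, beside 47.8%. With siAHR-2 all 10 lay below the control, by a log2FC between -0.33 and -0.15 with a median of -0.28, and 10 of 10 passed a false discovery rate of 0.05 without a fold cutoff. With siAHR-5, 7 passed as lower and Slc2a1 as higher, and the median was -0.18. Of all genes, 0.159% were called higher and 0.311% lower with siAHR-2, and 1.48% higher and 0.849% lower with siAHR-5. At the false discovery rate of 0.05 alone, 29.3% of all genes passed with siAHR-2, 15.5% as lower, and 39.2% with siAHR-5, 18.1% as lower. Groups did not overlap for 10 of the 10 with siAHR-2, beside 43.3% of all genes, and for 8 of the 10 with siAHR-5, beside 50.5%.

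Slc2a1 measured 15.38, 15.36 and 15.30 with siCtrl, 15.13, 15.09 and 15.03 with siAHR-2, and 15.54, 15.59 and 15.53 with siAHR-5. The 3 groups did not overlap, with siAHR-2 lowest and siAHR-5 highest. Its log2FC was -0.27 (SE 0.0343, adjusted p = 0.00423) with siAHR-2 and 0.20 (SE 0.0308, adjusted p = 0.00462) with siAHR-5, and the siRNAs differed from each other by 0.47 (SE 0.0308, adjusted p = 3.03e-04).

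Hk1 measured 15.31, 15.31 and 15.34 with siAHR-2 and 15.54, 15.53 and 15.52 with siAHR-5, against 15.58 to 15.67 with siCtrl. All siAHR-2 values lay below the siAHR-5 values, and all of these below the control. The siRNAs differed by 0.21 (SE 0.0145, adjusted p = 3.61e-04). Hk2 measured 14.30, 14.26 and 14.24 with siAHR-2 and 14.30, 14.31 and 14.28 with siAHR-5, against 14.45 to 14.54. Both siRNAs left Hk2 below every control library, at -0.24 (adjusted p = 0.00420) and -0.21 (adjusted p = 0.00365), and their difference of 0.03 had a 95% confidence interval of -0.02 to 0.08.

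Pfkp lay at -0.15 (adjusted p = 0.00341) and -0.18 (adjusted p = 0.00115) with siAHR-2 and siAHR-5. Pfkl measured 16.36, 16.39 and 16.31 with siAHR-2 (log2FC -0.33, adjusted p = 9.44e-04) and 16.55, 16.66 and 16.51 with siAHR-5 (log2FC -0.11, adjusted p = 0.0933). Its siAHR-5 libraries overlapped the control libraries, and its siAHR-2 libraries did not. Tpi1 overlapped the control with siAHR-5 as well, where replicate 2 stood at 14.04 and the others at 13.66 and 13.62. Tpi1 had a log2FC of -0.28 (adjusted p = 0.0223) with siAHR-2 and -0.15 (SE 0.119, adjusted p = 0.374) with siAHR-5. Without that replicate 2 the siAHR-5 value was -0.29 (adjusted p = 0.00951), and over the libraries left out in turn it ran from -0.29 to -0.08, the latter without siAHR-5 replicate 3.

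Aldoa, Eno1, Pkm and Ldha lay below every control library with both siRNAs. With siAHR-2 their log2FC values were -0.33, -0.21, -0.30 and -0.29, with adjusted p-values from 6.96e-04 to 0.00217. With siAHR-5 they were -0.21, -0.30, -0.21 and -0.19, with adjusted p-values from 0.00108 to 0.00415. These values depend on the scaling. Quantile normalization put Eno1 at 0.08 with siAHR-2 (adjusted p = 0.00263), above the control and past a false discovery rate of 0.05, and left the other 9 genes lower. With siAHR-5 it put Eno1 at 0.06, Aldoa at 0.06, Pfkl at 0.06 and Ldha at 0.01, all above 0. It left 2 genes passing as lower, Hk2 and Pfkp, and 2 as higher, Slc2a1 and Eno1, beside 19.4% and 19.9% of all genes. These counts are near the shares of all genes. Quantile normalization also moved the shares of all genes called with siAHR-5 to 0.963% higher and 0.955% lower. Of the 324 genes that averaged 16 or more on the log2 scale, which include 5 of the 10, 75.3% lay below 0 with siAHR-2, and of 320 such genes 75.9% with siAHR-5. The part of this shift among genes with high values in the values of the 10 was not tested.

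**Figure D5:**
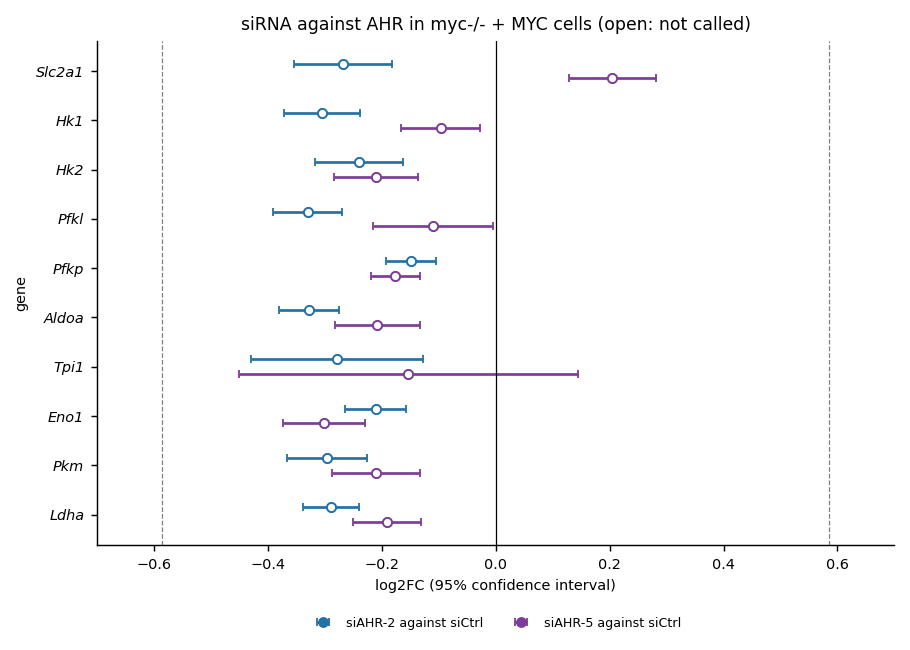
log2FC of each siRNA against siCtrl in myc-/- + MYC cells (horizontal axis, bars are 95% confidence intervals) for the 10 genes; all points are open because none was called, and dashed lines mark the fold cutoff of 1.5. Slc2a1 lies at -0.27 with siAHR-2 and at 0.20 with siAHR-5.

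Set directly against each other at the same dose and time, the siRNAs gave no called gene among the 10 by limma (7 had an unadjusted p under 0.05, as did 46.8% of all genes), beside 1.33% of all genes called higher and 0.849% lower with siAHR-5. Without the fold cutoff 7 of the 10 passed a false discovery rate of 0.05, where 39.1% of all genes did, 6 of them higher with siAHR-5 and Eno1 lower at -0.09 (adjusted p = 0.0241, and 0.00 under quantile normalization). The siRNA effects share their control libraries, so only their direct difference was tested. Among the 5 lists no gene was called by limma with siAHR-2, while an unadjusted p under 0.05 was found for 4 of 6 other transporters, 13 of 15 other enzymes, 4 of 11 regulators, 9 of 16 genes of lactate and pyruvate and 6 of 8 of the pentose phosphate branch, beside 40.4% of all genes. With siAHR-5 the 1 called gene was Rpia, at -0.82 (SE 0.0461, adjusted p = 3.42e-04), while siAHR-2 left it at 0.13 (adjusted p = 0.0962), and the siRNAs differed by -0.95 (adjusted p = 1.76e-04). Pgd, the NADPH-making dehydrogenase of the pentose phosphate branch, picked after its values were seen, lay at -0.55 (adjusted p = 3.85e-04) with siAHR-2 and -0.44 (adjusted p = 3.97e-04) with siAHR-5, both under the fold cutoff.

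The order of the groups within the set of 12 differed from gene to gene. Slc2a1 ran from myc-/- through siAHR-2 and siCtrl to siAHR-5 with no overlap of neighbours. Pkm and Ldha ran from myc-/- through siAHR-2 and siAHR-5 to siCtrl, again with no overlap, and all MYC-expressing libraries lay above all myc-/- libraries for both genes. For Aldoa the MYC-expressing groups kept this order, but myc-/- stood above them all. Under quantile normalization siAHR-5 lay above siCtrl by 0.01 for Ldha and 0.06 for Aldoa, so that step of their order rests on the scaling. Hk2 had both siAHR groups at the bottom and myc-/- and siCtrl overlapping at the top.

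Across the 12 libraries of that set, the genes most like Slc2a1 among 10731 whose log2 values averaged 5 or more were Vwa1, Rimbp2 and Anpep, with Pearson correlations of 0.997, 0.993 and 0.993. Those most like Ldha were Dhodh, Pkm and Kars, with 0.992, 0.991 and 0.991. These correlations describe 12 libraries in 4 groups, and how far they follow the differences between groups was not tested.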

How the data were processed

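The authors sequenced poly-A RNA, aligned it with HISAT2 2.1.0 to rn6 and normalized it with DESeq2, as the submitters' processing notes list. The authors deposited log2 expression values for 13188 genes in 18 libraries, without pooling. The table is called log CPM, but values taken off the log scale sum per library to between 86.3 and 161 times what CPM values would, so they are not CPM. The transformation, read counter and annotation are not given in the sources used here. Depth is unknown, so no counting interval is given, and error is the spread of 3 libraries. Value columns without a sample numbered 0.

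Groups come from the sample labels. limma 3.58.1 in R 4.3.3 (lmFit, eBayes with a mean-variance trend) was run on all genes with only the groups compared, with Benjamini-Hochberg adjustment. The cutoffs of log2FC 0.585 and adjusted p 0.01 are those of the study's results. The main fits did not pair libraries by replicate number, since in no comparison did every same-numbered pair correlate above 0.1. This does not exclude pairing: with siAHR-5, pairs 1 and 2 had correlations of 0.22 and 0.14 and pair 3 of -0.065.

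The 10 genes and the 5 pathway lists were chosen with earlier results of these data known. All 10 are named, together with the 2 called genes of largest log2FC per list in each MYC comparison, each list gene called with an siRNA, and the 3 genes most like Slc2a1 and Ldha. Hkdc1 and Mlxip were not analysed here, and 1 gene that the naming rule picks is not reported here. Alternatives were a false discovery rate of 0.05, quantile normalization, median centring, no trend, a filter at a mean log2 value of 5, a pseudocount of 1, all libraries of the set of 12 in 1 fit for the comparisons within it, a replicate block and each library left out. Quantile normalization and the block at a false discovery rate of 0.05 were added after seeing the values. Plots used matplotlib 3.10.9 (Python 3.11.15).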

Additional observations from a re-analysis of the deposited data

Results flagged for a closer look

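The log2FC with MYC against without differed from set to set for 8 of the 10 genes, by the test of the difference itself (limma, set of 12 minus set of 6), beside 6.79% of all genes called higher and 9.67% called lower. Quantile normalization gave 6, without Hk1 and Eno1, and leaving out myc-/- siCtrl replicate 3 also gave 6, without Hk1 and Pfkl. The differences were 1.28 for Slc2a1, 1.13 for Ldha, 1.11 for Hk2, 0.65 for Pkm, 0.64 for Aldoa, 0.61 for Eno1, 0.61 for Pfkl and 0.60 for Hk1. For Slc2a1, Ldha and Pfkl the libraries with MYC lay all below those without in one set and all above in the other. Quantile normalization took the log2FC of Slc2a1 in the set of 6 to 0.01, so its lower position there rests on the scaling. Transfection changes together with MYC in one set and against it in the other, so the difference holds effects of transfection and does not show that MYC acted otherwise. Their parts cannot be told apart. Single outlying libraries were not looked for, since groups hold 3.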

How the results depend on the processing

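Leaving out each library in turn kept the number of called genes among the 10 at 3 for MYC in the set of 6, 5 for MYC in the set of 12 and 0 for each siRNA and for siAHR-5 against siAHR-2, and gave between 6 and 8 for the difference between the sets. A false discovery rate of 0.05 without a fold cutoff gave 8, 9, 10, 8 and 7 genes for MYC in the set of 6, MYC in the set of 12, siAHR-2, siAHR-5 and siAHR-5 against siAHR-2. The shares of all genes were 76.2%, 64.7%, 29.3%, 39.2% and 39.1%. With quantile normalization as well this cutoff gave 10 for siAHR-2, 1 of them higher, and 4 for siAHR-5, beside 30.1% and 39.2% of all genes. The count with siAHR-5 is near that share. The replicate block changed no count of called genes among the 10. At a false discovery rate of 0.05 it gave 9 for siAHR-2 and 7 for siAHR-5, beside 21.6% and 36.6% of all genes. Over all genes the block lowered the share called with siAHR-2 from 0.470% to 0%, where Ahr kept its log2FC of -1.29 at an adjusted p of 0.0126 (0.00474 with siAHR-5). Same-numbered libraries had mean correlations between -0.0287 and 0.0974, and 0, 0, 1, 2 and 2 of 3 numbers matched best with their own.

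Directions turned mainly under quantile normalization. For MYC in the set of 6 it gave 0.0051 for Slc2a1, 0.136 for Hk1, 0.1315 for Tpi1, 0.1215 for Pkm, 0.1439 for Gapdh and 0.1484 for Pgd, and in the set of 12 it gave 0.0715 for Hk2. With siAHR-2 it gave 0.0762 for Eno1, with siAHR-5 0.0554 for Pfkl, 0.0553 for Aldoa, 0.0601 for Eno1 and 0.007 for Ldha, and for siAHR-5 against siAHR-2 0.00 for Eno1 and 0.0165 for Gapdh. Median centring gave -0.0288 for Pdk1 with MYC in the set of 6. Leaving out a library moved Pkm in the set of 6 between -0.032 and 0.007 and Tpi1 in siAHR-5 against siAHR-2 between -0.0092, without siAHR-5 replicate 2, and 0.20. The causes were not tested. Whether the unknown transformation compresses differences of low genes was not tested, and groups of 3 limit precision.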
